A study of Homo sapiens with 9 samples.

Results

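Sites in the transcripts of 5 genes were examined across SETD2 knockdown: ESYT1, ANO6, PRDX3, BNIP3L and DNMT1. They were chosen by gene window and strand on the human genome build hg19, with earlier results of these data in view, because their sites had high scores in the knockdown lists. At ESYT1, ANO6 and PRDX3 the score was above that in control, while the sites of BNIP3L and DNMT1 were not listed in control and have no control value. The scores are therefore given as a description, with no test. The 5 windows held 5 distinct positions, 1 per gene, of the 4429 distinct positions in the 3 deposited lists. By list, they held 5 of the 482 sites with hairpin 1, 5 of the 697 sites with hairpin 2 and 3 of the 3755 sites in control.

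The study mapped N6-methyladenosine (m6A) sites in HepG2, an established human hepatocellular carcinoma line. Cells were infected with lentivirus and selected with puromycin, and stably carried a first SETD2 shRNA (shSETD2_1, called hairpin 1), a second SETD2 shRNA (shSETD2_2, called hairpin 2) or a non-specific control shRNA (shCtrl). Each shRNA had 3 labelled replicates, 9 samples in all, but 1 pooled list of sites, so no value below has an SD and no difference has a replicate check. The labels do not say whether the infected cells were clones or pools, and the knockdown rests on the labels alone, since SETD2 transcript levels were not analysed here.

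m6A is the most common internal modification of mRNA. It is placed by a nuclear methyltransferase complex with METTL3 as its catalytic subunit, lies most often near stop codons and in 3′ untranslated regions, and affects how long a transcript lasts and how well it is translated. SETD2 is the enzyme that places H3K36me3, a histone mark found along the body of transcribed genes. The design asks how the mapped sites differ when SETD2 is depleted.

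Each list gives a site as 1 base with a strand and a whole-number score set by the authors. What the score counts is not stated. It is read below as sequencing coverage of the base, an inference from the order of the site names. The title of the series gives the assay as miCLIP, where a crosslinked antibody leaves C-to-T changes in the reads beside m6A. All 9 samples are instead titled m6A-seq, and their protocol has an m6A antibody pull-down after sonication but mentions no crosslink. Whether these sites mark m6A was not tested. The lists differed in length and in their sums: over the listed sites, the scores summed to 23420 with hairpin 1, 51597 with hairpin 2 and 256360 in control, and the median score was 11, 15 and 14. No input libraries were analysed here, so more transcript and more immunoprecipitated transcript cannot be told apart, and total reads per library were not used, so a difference in sequencing depth is not shown by these sums.

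The 5 sites lay toward the 3′ end of their genes, and 3 of them lay within 19 nt of the end of the window. The DNMT1 site (chromosome 19, position 10244025, minus strand) was 4 nt from the window's 3′ end, in a window of 61735 nt. The ESYT1 site (chromosome 12, position 56538455, plus strand) was 5 nt from the end of a window of 16475 nt. The PRDX3 site (chromosome 10, position 120927234, minus strand) was 19 nt from the end of a window of 11131 nt. The other two sites were farther inside. The BNIP3L site (chromosome 8, position 26268505, plus strand) lay 2139 nt from the end of a window of 30122 nt. The ANO6 site (chromosome 12, position 45826129, plus strand) lay 8058 nt from the end of a window of 224418 nt, 96.4% of the way along it. Window ends stand for transcript ends here. Shorter transcripts, exons, untranslated regions and the bases around the sites were not analysed, since no hg19 annotation or genome was used.

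Each site stood alone. No list held a second site on the same strand in any of the 5 windows or within 1000 nt of them, and none held a site on the opposite strand of these extended windows. The nearest other listed site on the same strand and chromosome, over the 3 lists, was 39987 nt from the ESYT1 site and between 419901 and 1883897 nt from the other 4 sites.

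ESYT1 and ANO6 both act in the movement of membrane lipids. ESYT1 encodes extended synaptotagmin 1, which tethers the endoplasmic reticulum to the plasma membrane and transfers lipids between them in response to calcium. Its site had a score of 792 with hairpin 1 and 2112 with hairpin 2, against 529 in control. The ratio to control was 1.50 with hairpin 1 (95% interval 1.34 to 1.67) and 3.99 with hairpin 2 (3.63 to 4.40). These intervals, like all those below, cover counting error only, since no molecular identifiers are mentioned and reads may repeat a molecule. ESYT1 had the highest score of the 458 nuclear sites with hairpin 1 and the third highest of 671 with hairpin 2, and it ranked 38 of 3730 in control.

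ANO6, also called TMEM16F, encodes a calcium-activated scramblase that exposes phosphatidylserine on the cell surface. Its site had a score of 250 with hairpin 1 and 1341 with hairpin 2, against 198 in control. The hairpin 1 value was close to control, with a ratio of 1.26 (interval 1.04 to 1.53), the lowest among the genes with a ratio. With hairpin 2 the ratio was 6.77 (5.83 to 7.90).

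The other genes act in mitochondria and in the nucleus. PRDX3 encodes the mitochondrial peroxiredoxin, which removes hydrogen peroxide in the matrix. Its site had a score of 171 with hairpin 1 and 675 with hairpin 2, against 98 in control, the lowest control score of the set. The ratio was 1.74 with hairpin 1 (interval 1.35 to 2.26) and 6.89 with hairpin 2 (5.57 to 8.60), the highest ratio of all 244 positions shared between hairpin 2 and control.

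BNIP3L, also called NIX, encodes a receptor of the outer mitochondrial membrane that directs mitochondria to autophagy and is induced in hypoxia. Its site had a score of 507 with hairpin 1 and 2586 with hairpin 2 and was not listed in control. The hairpin 2 value was the highest of that whole list, mitochondrial sites included. DNMT1 encodes the maintenance DNA methyltransferase, which copies CpG methylation onto newly made DNA. Its site had a score of 654 with hairpin 1 and 1877 with hairpin 2 and was also not listed in control. A list shows only the positions its authors called, so the coverage of these 2 bases in control is unknown and no fold is given.

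**Figure D1:**
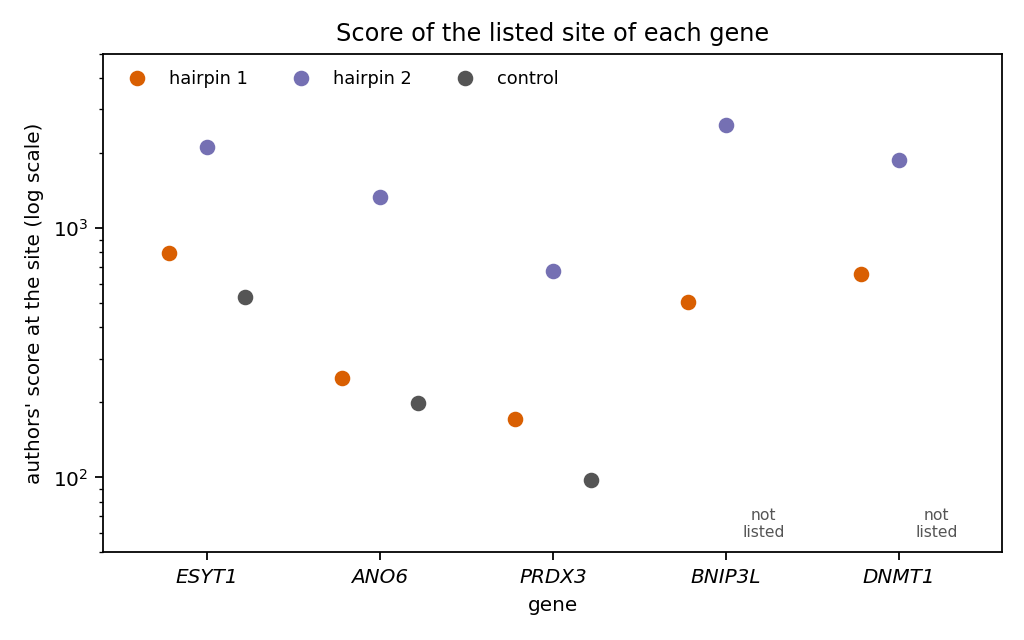
The authors' score (log scale) at the listed site of each gene with hairpin 1, hairpin 2 and control, 1 pooled value per point. Hairpin 2 is highest for every gene, from 675 at PRDX3 to 2586 at BNIP3L, and control is lowest for ESYT1, ANO6 and PRDX3 and has no listed site for BNIP3L and DNMT1.

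The 3 sites with a control value went the other way from most shared positions. Among all 225 positions shared by hairpin 1 and control, 12 had a higher score with hairpin 1, or 5.33%. Among the 244 shared by hairpin 2 and control, 39 were higher with hairpin 2, or 16.0%. ESYT1, ANO6 and PRDX3 were among them in both, as the choice of genes required, so nothing is read from their count. Their ratios can be set beside those of the others. The 222 other positions had a median ratio of 0.141 with hairpin 1 and the 241 others a median of 0.201 with hairpin 2. At least a 2-fold higher score was seen at 2 positions with hairpin 1 (0.889%), neither of them in these genes, and at 23 with hairpin 2 (9.43%). ESYT1 at 3.99 ranked 12th with hairpin 2, behind ANO6 in second place and PRDX3 in first. With hairpin 1 the ranks were lower for PRDX3 and ANO6, with PRDX3 at 4, ESYT1 at 8 and ANO6 at 9 of the 225.

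Other positions as deeply covered in control mostly had lower scores after knockdown. A control score of at least 98, the PRDX3 value, was found at 115 other positions shared with hairpin 1 and at 103 shared with hairpin 2. Of these, 2 had a higher score with hairpin 1 (1.74%) and 7 with hairpin 2 (6.796%). The median ratios over the 115 and 103 positions were 0.106 and 0.127. The 2 higher with hairpin 1 had scores of 239 against 159 and 195 against 108 in control. Their log2 ratios were 0.59 and 0.85, against 0.34 to 0.80 at ESYT1, ANO6 and PRDX3. The 7 higher with hairpin 2 had log2 ratios of 0.11 to 2.00, against 2.00 to 2.78 at the same genes. The highest of the 7 had a score of 2497 against 625 in control, a ratio like that of ESYT1 at 2112 against 529. Shared mitochondrial sites, whose transcripts are made outside the nucleus, had median ratios of 0.141 with hairpin 1 (13 sites) and 0.154 with hairpin 2 (12 sites). The log2 ratios of single mitochondrial sites ran from -4.07 to -2.05 with hairpin 1 and from -4.43 to -2.24 with hairpin 2. Knockdown scores were scaled so that the median of these sites, not each site, matched control. The ratios of ESYT1, ANO6 and PRDX3 then spanned 8.95 to 12.4 for hairpin 1 and 26.0 to 44.9 for hairpin 2. Both comparisons use the same control list.

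**Figure D2:**
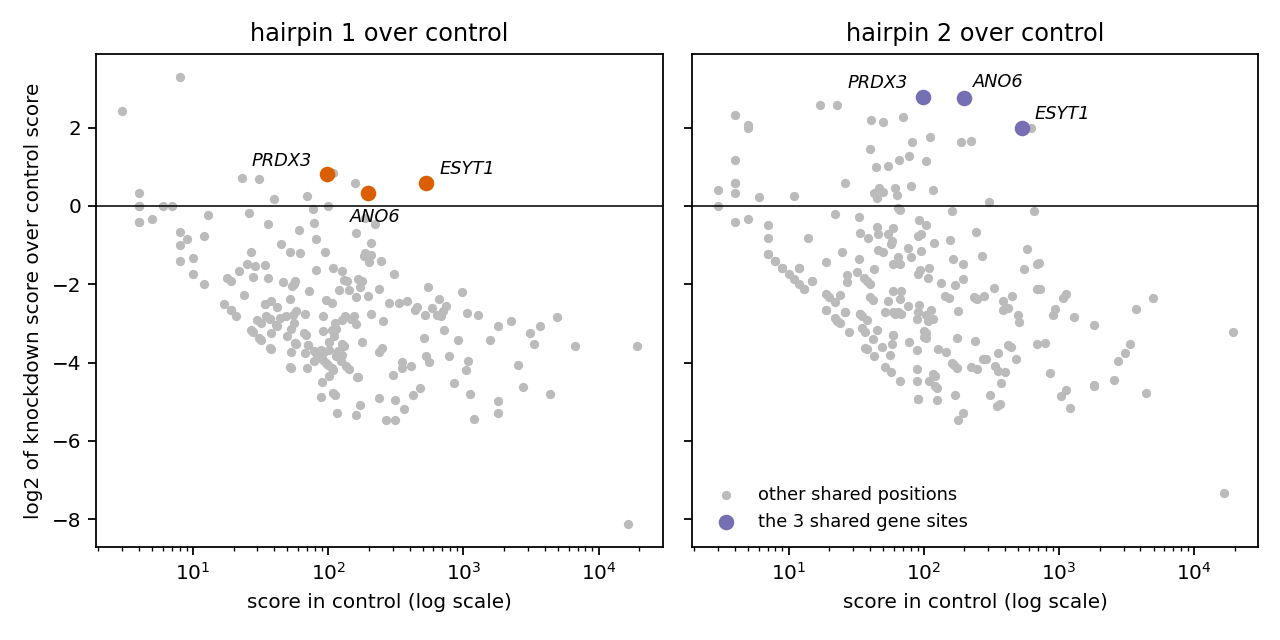
The log2 ratio of the knockdown score to the control score against the control score (log scale) at each position shared by hairpin 1 and control (left) and by hairpin 2 and control (right). Most grey points lie under 0, while PRDX3, ANO6 and ESYT1 (coloured) lie at 0.34 to 0.80 for hairpin 1 and at 2.00 to 2.78 for hairpin 2. The slanted lower edge of the points follows from the lowest listed score of 3.

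The 5 sites made up a larger share of the knockdown lists than of the control list, which follows in part from their choice by high knockdown scores. Control had deep sites of its own, with a highest score of 19241 and a score of 16513 at 1 nuclear site. The 5 sites held 10.1% of the summed score with hairpin 1 and 16.7% with hairpin 2, while the 3 listed in control held 0.322% there. Of the score at nuclear sites alone they held 14.0% with hairpin 1, 20.0% with hairpin 2 and 0.401% in control. By number, they were 1.04%, 0.717% and 0.0799% of the sites. BNIP3L alone held 6.01% of the nuclear score with hairpin 2 and 2.99% with hairpin 1. DNMT1 held 4.36% with hairpin 2 and 3.86% with hairpin 1.

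Few other positions had a higher score with both hairpins. Of the 83 positions in all 3 lists, 8 were higher with both than in control (9.64%), and ESYT1, ANO6 and PRDX3 were 3 of them. The other 5, named after their values were seen, had control scores of 3 to 70, all under the lowest control score of the 3 genes. The median log2 ratio of the 3 genes was 0.58 with hairpin 1 and 2.76 with hairpin 2. The position nearest to this pair of values was on chromosome 20 at 18744541 (plus strand), with scores of 38 with hairpin 1, 138 with hairpin 2 and 23 in control and log2 ratios of 0.72 and 2.58. The next nearest were on chromosome 5 at 122129628 (plus strand), with scores of 5, 20 and 4, and on chromosome 8 at 41368496 (plus strand), with 83, 339 and 70. The remaining pair, on chromosome 15 at 50641825 (minus strand; 45, 110 and 40) and chromosome 18 at 8037998 (minus strand; 16, 4 and 3), lay farther from the pair, the chromosome 18 position with a lower score for hairpin 2 than for hairpin 1. No gene is named for these positions, since no hg19 annotation was used.

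BNIP3L and DNMT1 were the deepest of the positions listed with both hairpins and not in control. There were 36 such positions, and the 34 others had a median score of 30 with hairpin 1 and 85 with hairpin 2 and a maximum of 236 and 538. Both genes exceeded these maxima in both lists, with DNMT1 ranked first with hairpin 1 and BNIP3L first with hairpin 2. The genes were chosen for high knockdown scores, so nothing is read from these ranks. Absence from the control list was common among knockdown sites in general, at 53.3% of sites with hairpin 1 and 65.0% with hairpin 2.

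The scores differed between the hairpins at every one of the 5 sites. Hairpin 2 had the higher score at all 5, by 5.36-fold at ANO6 (interval 4.68 to 6.16), 5.10-fold at BNIP3L (4.64 to 5.62), 3.95-fold at PRDX3 (3.33 to 4.70), 2.87-fold at DNMT1 (2.62 to 3.14) and 2.67-fold at ESYT1 (2.46 to 2.90). Hairpin 2 was also higher at most positions listed with both hairpins, 97 of 119 (81.5%), so the direction alone is near the background, and it was at least 2-fold higher at 55 of them (46.2%). The median ratio was 1.75 at the 102 other nuclear positions (upper quartile 2.58) and 1.24 at 12 mitochondrial ones. All 5 ratios lay above that upper quartile, ESYT1 only just. Among the 119 positions they ranked 7 (ANO6), 8 (BNIP3L), 17 (PRDX3), 28 (DNMT1) and 30 (ESYT1). The genes were chosen for high scores in these same lists, so nothing is read from their place. Scaled to the summed nuclear score of each list, of which these sites are a part, the ratios came to 2.11 at ANO6, 2.01 at BNIP3L, 1.55 at PRDX3, 1.129 at DNMT1 and 1.05 at ESYT1. Scaled instead by the mitochondrial sites shared by the hairpins, they came to 4.32, 4.11, 3.18, 2.31 and 2.15 in the same order of genes. The size of the difference at each gene therefore depended on the scaling. No replicate values stand behind any of these differences.

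**Figure D3:**
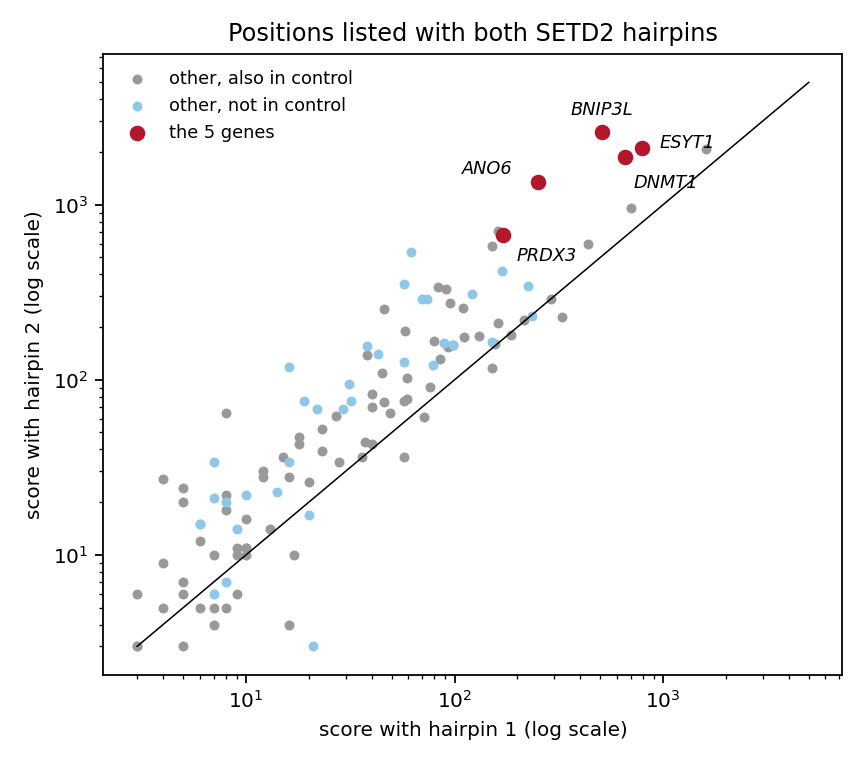
Score with hairpin 2 against score with hairpin 1 (both log scale) at the 119 positions listed with both, with the line of equal scores. The 5 genes (red) lie above the line, at 2.67-fold to 5.36-fold, among the deepest points; light blue points and BNIP3L and DNMT1 are not listed in control.

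The reads over these sites carried few C-to-T changes. Changed reads were reconstructed from the order of the site names and the score, as the files hold no such column, and a single value resulted at each of the 13 listed sites. ESYT1 had 10 changed reads of 792 with hairpin 1 and 25 of 2112 with hairpin 2, against 14 of 529 in control. Its share was 1.26% with hairpin 1 (interval 0.607 to 2.31) and 1.18% with hairpin 2 (0.767 to 1.74), against 2.65% in control (1.45 to 4.40). Coverage was thus higher with both hairpins, while changed reads were fewer than in control with hairpin 1 and more with hairpin 2. These differences in small counts were not tested. ANO6 had 5 of 250 and 13 of 1341, against 2 of 198 in control, which are shares of 2.00% with hairpin 1 (0.653 to 4.61), 0.969% with hairpin 2 (0.517 to 1.65) and 1.01% in control (0.123 to 3.60). PRDX3 had 2 of 171 and 8 of 675, against 1 of 98 in control, or 1.17%, 1.19% and 1.02%. At ESYT1 the control interval overlapped that of each hairpin, and a difference in share was not tested. At ANO6 and PRDX3 the intervals overlapped widely between the lists.

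For BNIP3L and DNMT1 the shares are given for the knockdown lists alone. BNIP3L had 7 changed reads of 507 with hairpin 1, a share of 1.38% (0.557 to 2.82). With hairpin 2 it had 22 of 2586, a share of 0.851% (0.534 to 1.29). DNMT1 had 16 of 654 with hairpin 1, a share of 2.45% (1.40 to 3.94). With hairpin 2 it had 26 of 1877, a share of 1.39% (0.907 to 2.02). DNMT1 had the highest share of the 5 sites in both knockdown lists, with an interval that overlapped that of BNIP3L in each.

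These shares were near the rate at which each list's own ordering counts a change as background. The rate fitted was 1.43% with hairpin 1, 1.00% with hairpin 2 and 1.57% in control. It lay inside the interval of all 5 sites with hairpin 1, all 5 with hairpin 2 and all 3 in control. The interval of DNMT1 with hairpin 1 began at 1.40%, only just under the rate. The changed reads were reconstructed from the site order under these same rates, so the comparison is not independent of them. At these rates BNIP3L would carry 7.24 changed reads with hairpin 1 and 26.0 with hairpin 2, where 7 and 22 were reconstructed. DNMT1 would carry 9.34 and 18.8, where 16 and 26 were reconstructed. ESYT1 in control would carry 8.30, where 14 were reconstructed. Summed over all sites of the set, 40 of 2374 reads were changed with hairpin 1 (1.68%, interval 1.21 to 2.29), 94 of 8591 with hairpin 2 (1.09%, 0.885 to 1.34) and 17 of 825 in control (2.06%, 1.20 to 3.28).

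Other deeply covered sites had similar shares. Nuclear sites outside the 5 genes with a score of at least 100 and a single reconstructed value had a median share of 1.37% with hairpin 1 (36 sites, quartiles 0.928 to 2.08), 0.968% with hairpin 2 (88 sites, 0.780 to 1.58) and 1.83% in control (398 sites, 1.12 to 3.39). Of these, 19, 45 and 168 were at or below the fitted rate of their list. With hairpin 2, the shares of the 5 genes ran between 0.851% and 1.39%, all inside these quartiles. With hairpin 1 they ran between 1.17% and 2.45%, and DNMT1 was the one above the upper quartile. In control the ANO6 share was below the lower quartile and ESYT1 was within the quartiles. The PRDX3 share in control was also below the lower quartile, but its score of 98 is under the minimum of 100 used here. These ANO6 and PRDX3 shares rest on 2 changed reads of 198 and 1 of 98, too few to place them firmly. An interval that holds the rate does not show that a site carries no m6A, and the depth of PRDX3 and ANO6 in control leaves shares of up to 5.55% and 3.60% possible.

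**Figure D4:**
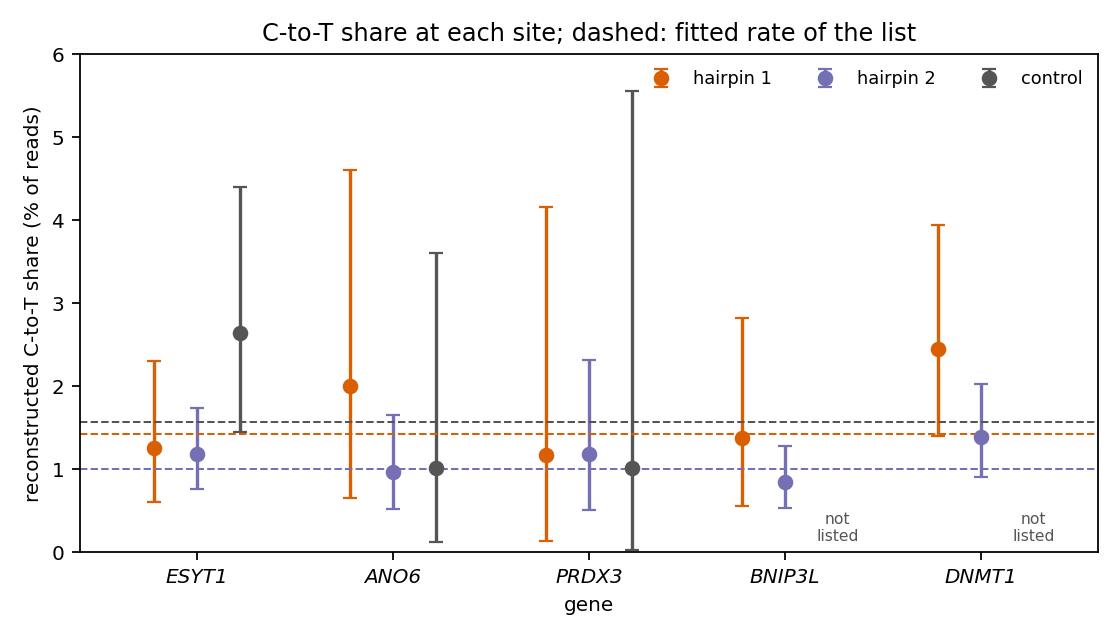
Reconstructed share of reads with a C-to-T change at each site, in percent, with 95% exact Clopper-Pearson intervals for hairpin 1, hairpin 2 and control. Dashed lines are the rates fitted to each list (1.43%, 1.00% and 1.57%), under which the changed reads were reconstructed. Each interval holds the line of its own list.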

How the data were processed

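The data are 3 site lists of HepG2 cells, 1 per shRNA. Per the submitters' processing notes, FastQC 0.11.5, cutadapt 1.13, Bowtie 1.1.2 and build hg19 were used; the deposited site names hold the words rbsSeeker and CT. For rbsSeeker, no version or filter is given in the sources used here, nor how replicates were merged. The score is the authors' deposited whole number per site, at least 3 in every list and not stated to be scaled for depth. The labels assign each list to the 3 samples of its group, so lists were treated as pooled.

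Sites were assigned to genes by position and strand, and shared when position and strand were equal. All listed sites of the 5 genes are named, with the 3 other nuclear positions in all 3 lists nearest to their median pair of log2 ratios. Ratios have 95% exact binomial intervals and shares 95% exact Clopper-Pearson intervals. Members, gene windows and comparisons were chosen with earlier results of these data known, and no test was made.

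Changed reads were reconstructed as the whole numbers that place all 482, 697 and 3755 sites (hairpin 1, hairpin 2, control) in the order of their running numbers by the binomial probability of that many or more changed reads. With shuffled scores, a single pass placed at most 32, 44 and 52 sites over 3 shuffles. A single value resulted at 97.7%, 97.0% and 98.6% of sites. The calculation was tested on simulated data, which cannot show what the score means. The related genes and cell type markers listed for an hg19 annotation were not looked up. Python 3.11.15, numpy 2.4.6, scipy 1.17.1, pandas 2.3.3 and matplotlib 3.10.9 were used.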

Additional observations from a re-analysis of the deposited data

How the results depend on the processing

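Matching within 10 or 50 nt, a minimum score of 10, merging within 10 nt and windows extended by 1000 nt left the counts of sites as they were. The genes were chosen for deep sites and for their direction, and the sites were then found to be isolated. These counts could therefore hardly change, so their constancy is no sign of stability. The C-to-T shares were the same over all rates that order the lists. Those rates spanned only 1.4283% to 1.4293% with hairpin 1, 1.0035% to 1.0041% with hairpin 2 and 1.5698% to 1.5699% in control. The shares could therefore hardly change either. Both scalings multiply the knockdown scores, so ratios to control could only move upward. Scaled by shared mitochondrial sites, hairpin 1 over control came to 10.6 at ESYT1, 8.95 at ANO6 and 12.4 at PRDX3, and hairpin 2 over control to 26.0, 44.1 and 44.9. Scaled by summed nuclear scores they came to 18.2, 15.3 and 21.2 with hairpin 1 and 19.1, 32.4 and 32.9 with hairpin 2. The ratio of the summed listed scores to control, planned over all 5 windows, came to 2.88 with hairpin 1 and 10.4 with hairpin 2. It is no fold of the 5 genes, since BNIP3L and DNMT1 have no control value and add to the knockdown sums alone. Scaled by mitochondrial sites it was 20.4 and 67.8, and scaled by nuclear scores 34.9 and 49.7. With only ESYT1, ANO6 and PRDX3, an alternative chosen after seeing the data, it was 1.47 and 5.004. Leaving out 1 gene at a time gave 2.08 to 5.34 with hairpin 1 and 7.28 to 21.9 with hairpin 2, highest without ESYT1. No paired analysis was possible because each shRNA has 1 pooled list with no values per replicate. Control depth at BNIP3L and DNMT1 is unknown, and the low number of changed reads limits the shares.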
